A study of Homo sapiens with 8 samples.

Results

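Poly(A) 3′-sequencing peaks at the transcript ends of long noncoding RNA (lncRNA) genes were examined in Kelly cells, which are human neuroblastoma cells that carry extra copies of MYCN. A peak was taken when it overlapped the window from 200 bp before to 600 bp after the annotated end of a GENCODE lncRNA transcript and touched neither a protein-coding gene nor such a window of a protein-coding transcript. Of the 153624 peaks in the deposited list, 2126 met this rule (1.38%). They fell at 1719 lncRNA genes, which is 14.2% (95% Wilson interval 13.6 to 14.9%) of the 12072 lncRNA genes with at least 1 end window clear of protein-coding genes. The rule used positions alone and no measured value.

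The libraries came from Kelly cells and from Kelly E9R cells, a derivative whose CDK12 carries a mutation of the cysteine that THZ531 binds and which, per the study's methods, arose spontaneously in Kelly cells under drug exposure. Each line was given the solvent DMSO or the covalent CDK12 and CDK13 inhibitor THZ531 for 6 h, in 4 groups of 2 libraries. The dose is 400 nM in the labels, whereas the study's methods name a different dose for Kelly cells. The authors called peaks once, on the merged reads of the libraries, so that neither treatments nor lines can be compared, and no value below has a replicate. Depth per library is unknown. Intervals cover counting error only. Neighbouring peaks of 1 gene and peaks in related sequences are not independent, and the intervals and tests over peaks take no account of this.

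LncRNAs are transcripts without a recognised protein product, and many are made by RNA polymerase II, capped, spliced and polyadenylated like mRNAs. Cleavage at a poly(A) site is directed by a hexamer, in most cases AATAAA or ATTAAA in the genome (AAUAAA or AUUAAA in the RNA), that is bound by the cleavage and polyadenylation specificity factor shortly before the cut. Some lncRNAs depart from this scheme: MALAT1 and the long form of NEAT1 end where RNase P cuts next to a tRNA-like structure and carry no poly(A) tail, while the short form of NEAT1 is polyadenylated. The library kit starts from the poly(A) tail with oligo(dT), which can also anneal to adenine-rich stretches inside a transcript.

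To show what these sites look like, the last 30 bases before the 3′ end of the strongest suitable peak are given for genes with different roles, read from GRCh38 on the strand of the gene, with a canonical signal that starts 10 to 35 bp before that end in capitals. For ISL1-DT and HAND2-AS1, whose signals start 32 and 33 bp before the 3′ end, the 30 bases begin at the signal and stop 2 and 3 bp short of that end.
NEAT1 (paraspeckle scaffold, chr11:65426503-65426532, plus strand): AATAAAgtttgagttctaaactcattagaa
MEG3 (imprinted gene, chr14:100860996-100861025, plus strand): tcAATAAAtgtgtttcctgtcttaacaaaa
LINC-PINT (p53-regulated gene, chr7:130944163-130944192, minus strand): atataAATAAAgcttaagtaaacatcactg
SNHG17 (snoRNA host, chr20:38420585-38420614, minus strand): ttcAATAAAccttacagaattgctccatgt
MIR7-3HG (microRNA host, chr19:4772520-4772549, plus strand): aatacatcaatcAATAAAtgaatgaatggc
MIR4435-2HG (microRNA host, chr2:111429311-111429340, minus strand): cttcATTAAAagcaaaactaaagaaaacag
ISL1-DT (divergent from ISL1, chr5:51377058-51377087, minus strand): AATAAAattgtggaaatgaatgaatgagaa
HAND2-AS1 (divergent from HAND2, chr4:173538964-173538993, plus strand): AATAAAgtgcgtgattcgcgtgtggaaacc
MALAT1 (nuclear speckle RNA, chr11:65502969-65502998, plus strand): tttacaaaagcagAATAAAagcgaaaagaa
In MEG3, LINC-PINT, SNHG17, MIR4435-2HG, ISL1-DT and HAND2-AS1 the 3′ end of the peak lay within 5 bp of an annotated transcript end. The signal began 28 bp upstream of the 3′ end of the peak in MEG3, 25 bp in LINC-PINT, 27 bp in SNHG17, 18 bp in MIR7-3HG and 17 bp in MALAT1. In MIR7-3HG and MALAT1 the 3′ end of the peak lay 12 and 34 bp after an annotated transcript end.

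A pair of strong peaks without any of the searched hexamers is shown for contrast, all in lower case because there is no signal to mark.
ENSG00000270066 (chr1:109100590-109100619, plus strand): ttatcgaggcgattctgatctgggcacggc
ENSG00000291063 (chr17:31034476-31034505, plus strand): ctagacagtagcatgcagtcccacaacttg
ENSG00000270066 overlaps SCARNA2, a small Cajal body RNA. ENSG00000259001, whose peak also had no hexamer but was followed by adenine-rich sequence, overlaps RPPH1, the RNA subunit of RNase P. SCARNA2 and RPPH1 are structured RNAs that are not known as polyadenylated transcripts, and the peaks on them were among the 5 strongest of all lncRNA transcript ends.

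Peaks at lncRNA ends were weaker than those at protein-coding ends and stronger than intergenic ones. Strength is given as the −log10 q that the authors' peak caller, MACS2, assigned to the summit, as the fold enrichment of the summit over the local background, and as the pileup, the number of extended reads stacked there. The median −log10 q was 7.93 at lncRNA ends (quartiles 5.64 and 12.6, range 1.31 to 126), 13.8 at 17128 ends of protein-coding genes on 1 strand and 6.22 at 11398 intergenic peaks outside all genes and windows. Median fold enrichment was 6.80 at lncRNA ends (quartiles 5.58 and 8.99), 8.90 at protein-coding ends and 5.88 in intergenic sequence. The summit rested on a median pileup of 10 reads, over all 8 libraries together, against 18 at protein-coding ends and 7 in intergenic sequence. A pileup of 10 or less lay under 50.6% of lncRNA peaks, 18.2% of protein-coding peaks and 73.9% of intergenic peaks. With reads extended to 100 bp, the highest pileup was 98 at lncRNA ends, 100 at protein-coding ends and 200 in the whole list. Whether reads with the same start were counted only once was not tested. The pileup, and the fold enrichment and −log10 q that rest on it, therefore cannot be taken as read depth.

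A −log10 q of at least 5, the limit the study used to select peaks, was reached by 1731 lncRNA peaks (81.4%, 95% Wilson interval 79.7 to 83.0%), against 73.5% of all peaks in the list. The difference in this share was −11.8 percentage points from protein-coding ends (95% Newcombe interval −13.6 to −10.2) and 16.5 points from intergenic sequence (14.6 to 18.3). At a limit of 10 the shares were 36.8% at lncRNA ends, 66.0% at protein-coding ends and 18.8% in intergenic sequence. Just outside the window, 600 to 1200 bp after lncRNA ends, 377 peaks had a median −log10 q of 6.69 and reached 5 in 73.5% of cases.

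**Figure D1:**
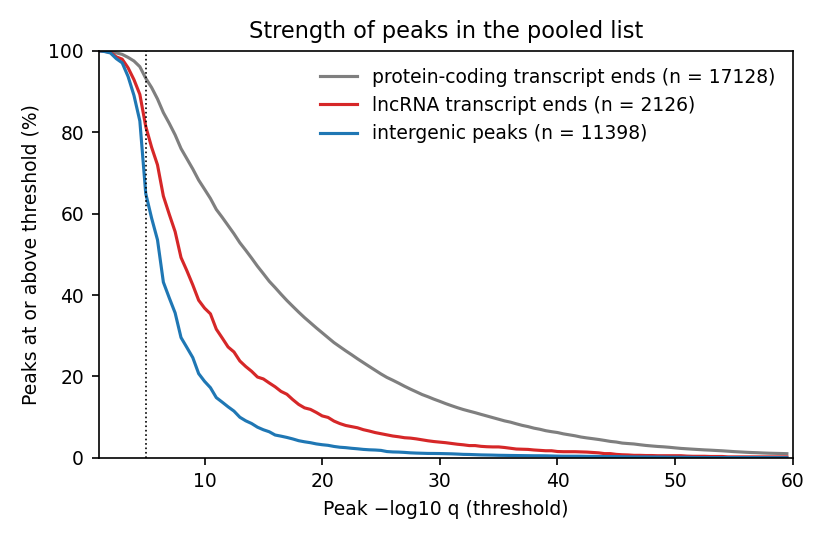
The share of peaks (vertical axis, percent) at or above each −log10 q (horizontal axis) is drawn for lncRNA transcript ends, protein-coding transcript ends and intergenic peaks, with a dotted line at 5. The lncRNA line runs between the others, at 81.4% where the protein-coding line is at 93.3% and the intergenic line at 64.9%.

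To ask how often these peaks follow a poly(A) signal, the 12 hexamers of the study, each named with its count in the next paragraph, were searched in the 100 bp before the 3′ end of the 2103 peaks whose lncRNA genes lie on 1 strand. The other strand was searched in mirror image from the other edge of each peak, as a background, because the peaks themselves carry no strand. A canonical signal (AATAAA or ATTAAA) preceded 1359 peaks (64.6%, 62.6 to 66.6%), against 20.4% on the opposite strand. It was found on the gene's strand alone at 1073 peaks and on the opposite strand alone at 144 (exact two-sided McNemar test, p = 5.24e-176). Any of the 12 hexamers preceded 1713 peaks (81.5%, 79.7 to 83.1%), against 51.1% (779 peaks against 141, exact two-sided McNemar test, p = 1.38e-107).

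AATAAA, the most efficient signal, was present at 51.5% of lncRNA peaks against 13.8% on the opposite strand and 57.5% at protein-coding ends. ATTAAA, the most common variant, was assigned where AATAAA was absent, at 13.2% of peaks, against 6.66% on the opposite strand and 14.5% at protein-coding ends. The other 10 hexamers were each counted only where none earlier in a fixed search order was present. In that order they were AGTAAA (52 peaks), TATAAA (59), AATATA (35), AATACA (30), CATAAA (27), GATAAA (32), AATGAA (28), ACTAAA (14), AAGAAA (60) and AATAGA (17). The counts therefore do not rank these 10 hexamers. Since fewer peaks were left for them on the gene's strand than on the opposite strand, their shares were not compared between strands. No hexamer preceded 390 lncRNA peaks (18.5%), against 12.4% of protein-coding ends.

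The canonical signal was less frequent at lncRNA than at protein-coding ends (64.6% against 72.0%), a difference of −7.35 percentage points (95% Newcombe interval −9.53 to −5.23). Since lncRNA peaks were weaker, the difference was also taken among peaks of like pileup. It was −7.01 points (−12.9 to −1.20) at a pileup of 3 to 6, −1.10 points (−5.20 to 2.88) at 7 to 10, −6.24 points (−9.84 to −2.78) at 11 to 20 and −8.10 points (−13.9 to −2.67) at 21 or more. At a pileup of 7 to 10 the interval included 0.

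Adenine-rich sequence, which means 6 consecutive adenines or 7 among 10 bases, lay within 50 bp after 635 lncRNA peaks (30.2%, 28.3 to 32.2%), against 24.01% on the opposite strand (530 peaks on the gene's strand alone and 400 on the opposite strand alone, exact two-sided McNemar test, p = 2.27e-05). Protein-coding ends went the other way, with 20.2% against 26.9% on the opposite strand (exact two-sided McNemar test, p = 8.71e-48). So did the 1161 lncRNA peaks within 25 bp of an annotated end, with 20.1% against 24.03%, so that the excess over the opposite strand lay in the peaks farther away, where the shares were 32.4 to 51.2% against 21.6 to 27.9% by distance class. The opposite strand was read beyond the other edge of each peak, where its adenines are thymines on the gene's strand. At protein-coding ends, 100 bp before the 3′ end, thymine stood at 31.9% and adenine at 27.8%. For the lncRNA peaks near an annotated end these were 31.9% and 29.2%. The opposite strand is therefore not a neutral background, and its part in these strand differences was not tested. The lncRNA share exceeded the protein-coding share by 10.0 points (95% Newcombe interval 7.98 to 12.1). Within pileup classes the excess was 4.81 points (−0.627 to 10.4) at 3 to 6, 6.71 points (2.83 to 10.7) at 7 to 10, 8.74 points (5.44 to 12.2) at 11 to 20 and 5.64 points (1.07 to 10.9) at 21 or more. Among lncRNA peaks that reached a −log10 q of 10, the share fell to 25.2% and no longer differed between strands by the test (exact two-sided McNemar test, p = 2.31e-01). The same held for peaks in a window of 100 bp on either side of the annotated end (25.5%, exact two-sided McNemar test, p = 2.44e-01). A run of 25 adenines, 3 mismatches allowed, which is the sequence the study filtered on, followed 37 lncRNA peaks (1.76%), and 26 peaks (1.22% of 2126) had such a stretch without a hexamer. A canonical signal with no adenine-rich sequence after it was found at 50.5% of lncRNA peaks and 61.2% of protein-coding ends. What part of these peaks came from priming inside transcripts was not tested.

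The 3′ end of lncRNA peaks lay close to the annotated end more often than not. Its median position was 4 bp after the nearest annotated end (quartiles −3 and 133.5 bp), and it fell exactly on the annotated base at 119 peaks. Within 25 bp of an annotated end were 1161 peaks (55.2%, 53.1 to 57.3%), against 65.8% of protein-coding ends, a difference of −10.6 points (95% Newcombe interval −12.9 to −8.39). Another 150 lncRNA peaks ended more than 25 bp before the nearest annotated end and 792 more than 25 bp after it. The window reaches 600 bp after an end but only 200 bp before it, so these counts are not on equal ground. At a distance of 26 to 100 bp, 82 peaks lay before the end and 207 after it. The comparison with protein-coding ends was not adjusted for the number of annotated ends per gene.

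Sequence differed sharply with this distance. A canonical signal preceded 80.4% of peaks within 25 bp of an annotated end and 45.1% of those farther away, a difference of 35.3 points (95% Newcombe interval 31.4 to 39.2). Adenine-rich sequence followed 20.1% of the near peaks and 42.7% of the far ones, a difference of −22.6 points (−26.5 to −18.7). The decline was already present 26 to 100 bp after the end, where 65.2% of 207 peaks had the signal, and the share stood at 36.5% of 244 peaks over 100 and up to 300 bp after the end and 40.7% of 236 peaks over 300 and up to 600 bp after it. Adenine-rich sequence followed 38.9% and 50.8% of the peaks in these last classes, and over 600 bp after the end 48.6% of 105 peaks, of which 41.0% had the signal. Upstream of the annotated end, 26 to 100 bp before it, 46.3% of 82 peaks had the signal and 51.2% the adenine-rich sequence.

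Compared with protein-coding ends in the same position, lncRNA peaks within 25 bp of an annotated end differed by −3.99 points in the canonical signal (80.4% against 84.4%, 95% Newcombe interval −6.46 to −1.70) and by 5.72 points in adenine-rich sequence (20.1% against 14.4%, 3.42 to 8.20). Farther from an annotated end the signal differed by −2.86 points (−6.26 to 0.579), an interval that includes 0, and adenine-rich sequence by 11.2 points (7.88 to 14.6).

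**Figure D2:**
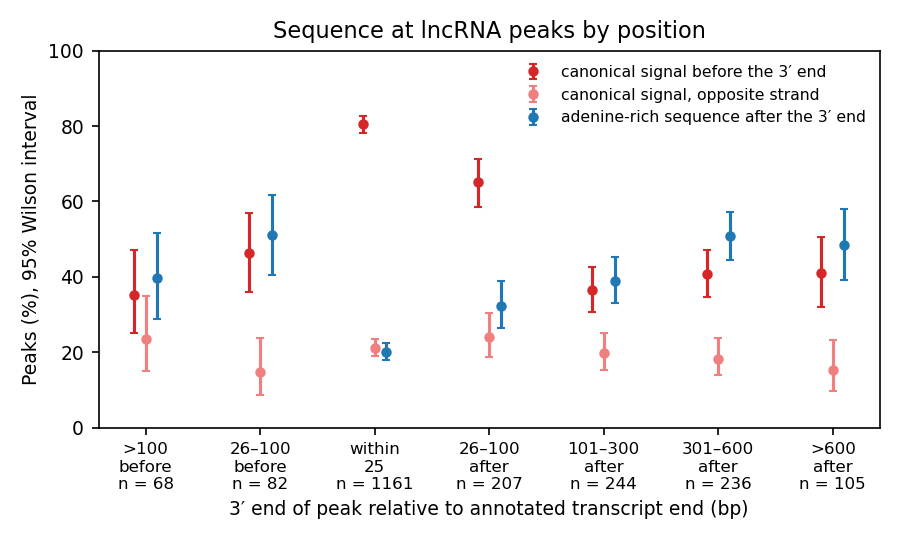
The share of lncRNA peaks (vertical axis, percent, with 95% Wilson intervals) with a canonical signal before the 3′ end, with that signal on the opposite strand and with adenine-rich sequence after the 3′ end is plotted by distance from the annotated transcript end (horizontal axis, bp). The signal reaches 80.4% within 25 bp of the end and 36.5 to 65.2% in the classes after it, where adenine-rich sequence takes 32.4 to 50.8%.

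The position of the signal inside the peak was also sharp. A canonical signal began 25 to 21 bp upstream of the 3′ end in 25.4 per 100 lncRNA peaks, against 25.8 per 100 protein-coding ends. In the same 5 bp the count was 35.5 per 100 for lncRNA peaks within 25 bp of an annotated end and 13.1 per 100 for those farther away. In the first 5 bases after the 3′ end it was 0.861 per 100 near the annotated end and 3.82 per 100 farther away. The 10 bases after the 3′ end held 31.8% adenine near the annotated end, 45.4% farther away and 29.5% at protein-coding ends.

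**Figure D3:**
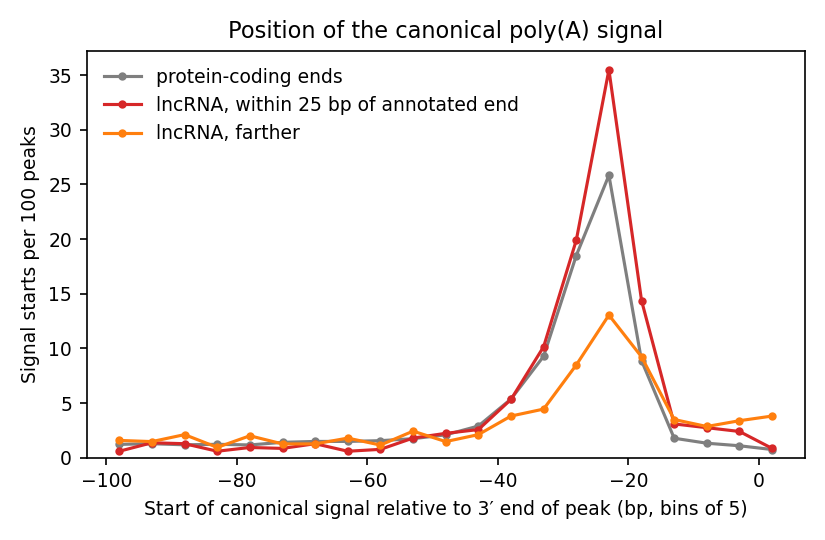
The number of canonical signals starting in each 5 bp bin per 100 peaks (vertical axis) is drawn against the distance from the 3′ end of the peak (horizontal axis, bp) for protein-coding ends, lncRNA peaks within 25 bp of an annotated end and lncRNA peaks farther away. All 3 lines are highest in the bin 25 to 21 bp before that end, at 25.8, 35.5 and 13.1.

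The detected genes were unevenly spread over kinds of lncRNA. Genes named as hosts of small RNAs had a peak in 34 of 87 cases (39.1%, 29.5 to 49.6%), genes named as divergent transcripts of a neighbour (suffix -DT) in 159 of 485 (32.8%, 28.8 to 37.1%) and genes named as antisense (suffix -AS) in 211 of 681 (31.0%, 27.6 to 34.6%). Genes with a LINC symbol, given to intergenic lncRNAs without a described role, had a peak in 217 of 2185 cases (9.93%, 8.75 to 11.3%), and genes with no symbol in 924 of 7965 (11.6%, 10.9 to 12.3%). Detected genes without a symbol nevertheless outnumbered those with one, 924 against 795.

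Many lncRNAs are made from the same promoter region as a protein-coding gene, transcribed away from it. Among lncRNA genes that start within 1 kb of the start of a protein-coding gene on the other strand, 610 of 1925 had a peak (31.7%, 29.6 to 33.8%), against 1109 of 10147 other lncRNA genes (10.9%, 10.3 to 11.6%), a difference of 20.8 points (95% Newcombe interval 18.6 to 22.95). Only the distance between the starts was used, so that pairs overlapping at their starts also count as head to head. Neither this comparison nor that by kind of symbol was adjusted for the number of annotated ends per gene. The peaks themselves were alike in strength, with a median −log10 q of 7.82 at the head-to-head genes and 7.99 at the others, and a canonical signal preceded 65.6% and 64.1% of them.

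**Figure D4:**
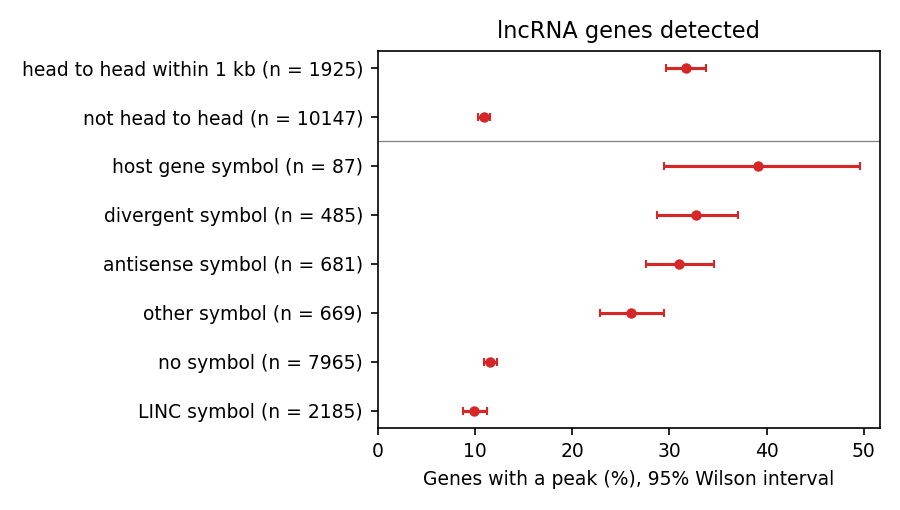
The share of lncRNA genes with at least 1 peak at an end (horizontal axis, percent, with 95% Wilson intervals) is shown for genes that start head to head with a protein-coding gene or not, and for genes by kind of symbol. The 1925 head-to-head genes stand at 31.7% and the 10147 others at 10.9%; host genes reach 39.1% and genes with a LINC symbol 9.93%.

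Splicing and distance from coding genes set the peaks apart less. Exons were counted in the longest transcript whose end window the peak touched, so that a gene can fall in several classes. A canonical signal preceded 65.6% of 598 peaks at single-exon transcripts and 59.96% of 462 at transcripts with 2 exons. The share was 65.5% of 336 peaks at transcripts with 3 exons and 66.5% of 707 at those with 4 or more. Peaks of single-exon transcripts lay within 25 bp of an annotated end in 62.7% of cases and those of 2-exon transcripts in 49.1%. The nearest protein-coding gene was up to 1 kb away at 226 peaks, over 1 to 10 kb at 760, over 10 to 100 kb at 772 and over 100 kb at 345, and the canonical shares in these classes ran from 62.5% to 66.4%. Under 5 kb downstream of a protein-coding gene on the same strand lay 61 peaks (2.90%), of which 65.6% had a canonical signal.

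Most genes had a single peak. A lone peak was found at 1427 genes (83.0%), 2 peaks at 214 and 3 or more at 78. Of 9188 lncRNA genes with 1 annotated end that could be assessed, 656 (7.14%, 6.63 to 7.68%) had a peak within 25 bp of it. Among 1223 genes with 3 or more annotated ends, 245 (20.03%, 17.9 to 22.4%) had at least 1 end so matched and 78 had 2 or more. Genes with more ends have more chances of a match. Counted per end, 7.14% were matched at genes with 1 end, 5.20% at genes with 2 and 6.21% at genes with 3 or more.

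The highest number of peaks at 1 gene was 8. MIR4435-2HG, which hosts a microRNA and spans 517 kb, had 8 peaks that matched 6 of its 16 annotated ends. Their −log10 q ran from 3.405 to 35.6, and 4 of the 8 had a canonical signal. PVT1, which neighbours MYC, also had 8 peaks, with −log10 q from 5.58 to 23.2 and a canonical signal at 6 of them, and matched 5 of 19 annotated ends. NUTM2A-AS1 had 7 peaks, 6 of them with a canonical signal and none above a −log10 q of 24.02. EPIC1 had 6, the strongest at 12.05, and 5 of them were followed by adenine-rich sequence. FTX, LSP1P5 and PCBP1-AS1 also had 6 peaks and are named here after their values were seen.

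HAND2-AS1, transcribed away from the gene of the sympathetic transcription factor HAND2, had 7 peaks over 132 kb (chr4:173527270-173659696). The first 3 lay close together and had a −log10 q of 17.4, 28.8 and 14.4 at pileups of 37, 49 and 31. The other 4 lay farther along the gene with a −log10 q of 13.0, 4.32, 10.6 and 10.7 at pileups of 19, 10, 17 and 17. Pileups were thus higher at the early ends, and so was the local background, from 4.06 to 4.80 reads against 1.35 to 1.43 at the later ends. Fold enrichment overlapped between them, at 6.55, 8.76 and 6.32 for the early peaks and 8.37, 4.68, 7.41 and 7.44 for the later ones. Of the 10 annotated ends, 5 were matched within 25 bp, the earliest included and the last not.

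Of the 10 strongest peaks, all but that of TALAM1 belonged to genes without a symbol. ENSG00000289901 (chr13:109424128-109424379, minus strand), a gene of 0.161 kb with a single-exon transcript, had the highest −log10 q among lncRNA ends, 126, at a fold enrichment of 37.8 and a pileup of 98. Of the 12 hexamers it had GATAAA, and its 3′ end lay 44 bp after the annotated end. ENSG00000270066 followed at 67.1 and ENSG00000259001 at 61.1, which are the genes over SCARNA2 and RPPH1 described above. ENSG00000291215 on chromosome 1, at 64.2, overlaps the pseudogene ENSG00000230021 and had AATGAA. ENSG00000291113 on chromosome 5, at 62.5, had AATAAA but was also followed by adenine-rich sequence. So were ENSG00000291055 at 50.6 and the peak of ENSG00000259001. ENSG00000289089 and ENSG00000286171, both with single-exon transcripts on chromosome 7, reached 54.4 with ATTAAA and 54.1 with AATAAA. ENSG00000290018 reached 52.7 and overlaps H3P6, a histone H3 pseudogene. Its sequence before the 3′ end (chr2:174720824-174720853, plus strand, signal in capitals) runs into a row of A on the genome itself.
ENSG00000290018: aaatacATTAAActataaaaaaaaaaaaaa
TALAM1, the antisense transcript of MALAT1, is transcribed from the same locus. Its stronger peak (chr11:65499495-65499966) had a −log10 q of 51.4 and a pileup of 96, with a fold enrichment of 8.23, because the local background was 10.8 reads. The peak lies inside MALAT1, and since peaks carry no strand the reads of TALAM1 and MALAT1 cannot be told apart.

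Among the 100 strongest peaks with genes on 1 strand, all with a −log10 q of at least 27.9, 43 belonged to genes without a symbol (977 of the 2003 other peaks did), 72 had a canonical signal, 24 were followed by adenine-rich sequence and 56 ended within 25 bp of an annotated end. Pseudogenes were overlapped by 6 of them and small RNA genes by 3.

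LncRNAs with described roles were then read by lists. In Kelly and Kelly E9R cells together the lists of described lncRNAs had peaks at the ends of 3 of 6 cytoplasmic regulators, 8 of 11 nuclear lncRNAs, 14 of 18 snoRNA hosts, 6 of 8 genes linked to p53 and DNA damage, 7 of 9 linked to neuroblastoma, 7 of 10 linked to neural development and 24 of 72 microRNA hosts, counting the genes with an end window clear of protein-coding genes. Over all lncRNA genes the share was 14.2%. NEAT1, NORAD, LINC-PINT, MIR124-1HG, MIR124-2HG, MIR9-1HG and MIR9-3HG stand in more than 1 list.

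Nuclear lncRNAs had 21 peaks with a median −log10 q of 8.27, close to the 7.93 of all lncRNA ends, and 15 of the 20 with genes on 1 strand had a canonical signal. NEAT1, the scaffold of paraspeckles, had its stronger peak 19 bp after an annotated end, with a −log10 q of 31.8 and a pileup of 52, and the AATAAA printed above stands 30 bp before its 3′ end. This peak (chr11:65426045-65426532) belongs to a short transcript, since the gene extends to position 65445540. The other NEAT1 peak had a −log10 q of 8.67 and no hexamer. MEG3, an imprinted growth suppressor, had 1 peak at 19.5 over a background of 0.190 reads, 1 bp before an annotated end. MIAT, a nuclear RNA expressed in neurons, had ATTAAA at its stronger peak, 1 bp after the annotated end, with a −log10 q of 18.1. LINC-PINT had a peak at 19.3 and another at 4.20, each with AATAAA.

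MALAT1, the abundant RNA of nuclear speckles, had 4 peaks with a −log10 q of 13.8, 8.65, 8.27 and 6.30. Their pileups were 52, 28, 28 and 38, but the background under them was 12.4, 5.67, 5.90 and 12.4 reads, so that fold enrichment was 2.91 to 4.35. Adenine-rich sequence followed all 4, and AATAAA preceded the stronger pair. In the sequence printed above, that signal stands next to further adenines. The pair of peaks inside MALAT1 that were assigned to TALAM1, with pileups of 96 and 69 and folds of 8.23 and 6.08, are not among these 4.

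Cytoplasmic regulators had 4 peaks at 3 genes. CRNDE, a lncRNA raised in many tumours, had the strongest peak of any listed gene, with a −log10 q of 43.3. Its fold enrichment was 16.7 and its pileup 46. The peak ended 3 bp before an annotated end and had AATAAA. That end lies inside the gene, which extends to position 54845189. NORAD, which sequesters PUMILIO proteins, had a peak at 25.3 with a pileup of 41, 6 bp after its annotated end and also with AATAAA. PCAT6 had peaks at 9.06 and 7.75, neither with a hexamer.

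SnoRNA hosts, spliced transcripts whose introns release small nucleolar RNAs, had 21 peaks with a median −log10 q of 13.7, and 15 of 19 had a canonical signal. SNHG1 reached 42.8 at a pileup of 52, 55 bp after an annotated end and with AATAAA. SNHG14, the long transcript of the Prader-Willi region, had 5 peaks with a −log10 q of 41.9, 9.97, 7.13, 5.58 and 4.49, and the strongest lay 605 bp after an annotated end with CATAAA. SNHG17 at 30.5 and ZFAS1 at 27.0 each had AATAAA and ended 3 and 1 bp after an annotated end. SNHG32 at 26.2 had no hexamer and was followed by adenine-rich sequence. At GAS5, whose RNA is degraded by nonsense-mediated decay when it is translated, 2 of 3 peaks lay in windows of genes on both strands, at 18.3 and 8.64.

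Genes linked to p53 and DNA damage had 10 peaks with a median −log10 q of 11.6, 9 of them with a canonical signal. Besides NEAT1, NORAD and LINC-PINT, TP53TG1, which p53 induces, had a peak at 18.6 with a pileup of 14 over a background of 0.220 reads. PURPL, which suppresses p53 levels, had peaks at 14.5, 8.73 and 6.80, all with AATAAA. The first 2 of these ended 1 and 3 bp before annotated ends. CDKN2B-AS1, antisense to the INK4 locus, had 1 peak at 4.59 with a pileup of 5.

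Genes linked to neuroblastoma had 17 peaks with a median −log10 q of 11.3, and 13 had a canonical signal. MYCNOS, antisense to the start of MYCN, had a peak at 32.2 whose pileup of 81 stood on a background of 13.2 reads, the highest background of all lncRNA ends, so that its fold enrichment was 5.76. The peak (chr2:15939835-15940285) lies 0.265 kb from a protein-coding gene, and MYCN is amplified in these cells. The part of the amplification in this value was not tested. Its other peak, at 11.3, had a background of 0.460 reads and a fold enrichment of 8.90. ISL1-DT, transcribed away from the gene of the sympathetic factor ISL1, had peaks at 24.6 and 10.6, 3 bp before and 2 bp after annotated ends and both with AATAAA. LINC00467, a MYCN target, had peaks at 13.0 and 12.9, again both with AATAAA. NBAT1 and CASC15, which lie together at a neuroblastoma risk locus on chromosome 6, were low, at 6.22 for NBAT1 and at 5.28 for each of 2 CASC15 peaks, with pileups of 6, 7 and 7. The NBAT1 peak lies inside CASC15, a gene on the other strand. Since peaks carry no strand, its reads cannot be credited to NBAT1 rather than CASC15.

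Neural development genes had 15 peaks with a median −log10 q of 14.6, and 12 had a canonical signal. MIR124-1HG, a host of the neuronal miR-124, reached 26.1, and MIR124-2HG reached 16.4. MIR9-1HG, a host of the neural progenitor microRNA miR-9, had peaks at 21.9, 18.6 and 4.81, each with AATAAA and each within 3 bp of an annotated end. MIR9-3HG, another miR-9 host, had 1 peak at 12.9 with no hexamer. DLX6-AS1, expressed in interneuron precursors, had peaks at 19.8, 7.11 and 6.22.

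MicroRNA hosts had 49 peaks with a median −log10 q of 10.2, and 36 had a canonical signal. MIR7-3HG, which hosts the neuroendocrine miR-7, reached 38.9 at a fold enrichment of 20 and a pileup of 32. MIR762HG followed at 37.8 and MIR4435-2HG at 35.6, over backgrounds of 0.890 and 0.260 reads. MIRLET7A1HG, the transcript of a let-7 cluster, reached 28.2, with AATAAA and a 3′ end 4 bp before an annotated end.

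**Figure D5:**
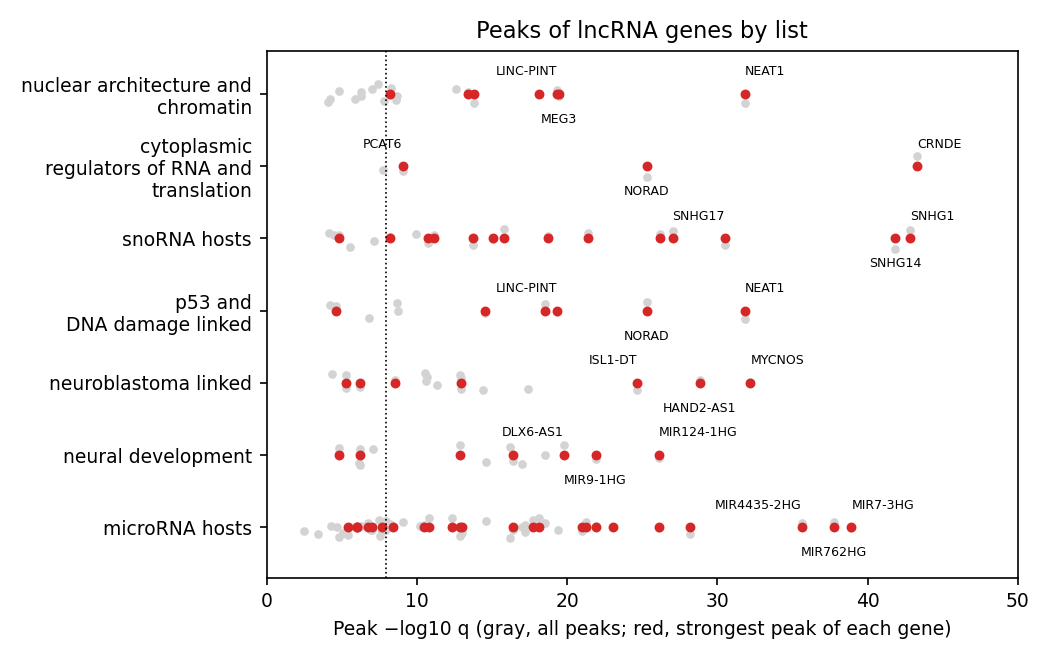
Each gray point is a peak and each red point the strongest peak of a gene, placed by −log10 q (horizontal axis) for the 7 lists (vertical axis), with a dotted line at 7.93, the median of all lncRNA ends. CRNDE at 43.3, SNHG1 at 42.8 and SNHG14 at 41.9 lie farthest to the right.

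The label of the cells was checked against protein-coding ends in the same list. The neuroblastoma markers HAND2, GATA3, ISL1, TH, DBH, CHGA and MYCN each had a peak at an end, with a highest −log10 q per gene of 17.0 to 53.4. Of 6 markers of other cell types, COL1A1 had a peak (19.8), and PTPRC, CD3E, ALB, KRT5 and PECAM1 had none.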

How the data were processed

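The authors sequenced QuantSeq 3′ REV libraries, mapped reads with STAR 2.5.1b to GRCh38 and, after merging the mapped reads of all libraries, called peaks with MACS2 2.1.1 (reads extended to 100 bp). SAMtools and deepTools 2.5.4 are also named in the submitters' processing notes. The q threshold and the handling of duplicates are not given in the sources used here. The deposited list gives for each peak a score, a fold enrichment (ratio of pileup to local background, 1 added to each), and −log10 p and −log10 q; it has no strand and no values per sample. The authors' coverage tracks were not used here.

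The annotation was the basic set of GENCODE release 44 without readthrough transcripts. A peak in several windows was assigned to the gene with the longest transcript. The 3′ end is the right edge of a peak for plus-strand genes and the left edge for minus-strand genes; 23 peaks with lncRNA genes on both strands were left out of strand analyses. Pileup and background were recovered from fold and −log10 p with the published MACS2 formulas, to within 0.02 of −log10 p. Python 3.11.15, pandas 2.3.3, scipy 1.17.1 and pysam 0.24.0 were used, and the scripts were tested on simulated data. Shares carry Wilson and differences Newcombe intervals; strands were compared by the exact McNemar test. Printed signals are AATAAA or ATTAAA starting 10 to 35 bp before the 3′ end.

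Named genes were the 10 strongest peaks (1 a gene), the 5 genes with the most peaks (ties by alphabet) and the strongest 3 to 5 genes of each list, with the 3 strongest peaks without a hexamer for the sequences (1 sequence and 1 marker gene are not reported here); GAS5, CDKN2B-AS1, NBAT1, CASC15 and those so marked in the text were added after their values were seen. The members and lists were chosen with earlier results of these data known. The comparison of THZ531 with DMSO that was planned for values per sample could not be made.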

Additional observations from a re-analysis of the deposited data

How the results depend on the processing

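Of 74 recomputed values, 64 kept their direction and their side of the threshold, or moved within their interval, under stricter limits on −log10 q, another overlap rule, a window of 100 bp on either side of the annotated end, 1 peak per gene, and, chosen after seeing the data, leaving out peaks over pseudogenes or over lncRNAs on the other strand. None changed direction. The share of peaks within 25 bp of an annotated end (55.2%) became 57.7% at a −log10 q of at least 5, 57.6% when at least 50% of a peak had to lie in the window, 70.4% with the narrow window, which by construction removes distant peaks, and 57.6% with 1 peak per gene. The share reaching a −log10 q of 5 (81.4%) became 83.6% with the narrow window and 83.6% with 1 peak per gene; the stricter limits give no value for it. A −log10 q of at least 10 left 782 of 2126 peaks and 715 of 1719 genes. The excess of adenine-rich sequence over the opposite strand was lost at that limit (25.2%, exact McNemar test, p = 2.31e-01) and with the narrow window (25.5%, p = 2.44e-01 by the exact test); the cause was not tested. No paired analysis was possible because the peaks were called on merged libraries and carry no value per sample, and for the same reason no library could be left out. At a median pileup of 10 reads, an end without a peak may lie under the detection limit.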

Other observations

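Peaks over other annotated sequences stood apart from the rest. The 143 lncRNA peaks that overlapped a pseudogene (6.80%) had a median −log10 q of 9.71, against 7.82 for the 1960 that did not, and a canonical signal at 55.9% (95% Wilson interval 47.8 to 63.8%) against 65.3% (63.1 to 67.3%). The 14 peaks over a small RNA gene had a median −log10 q of 15.6 and a canonical signal at 4 of 14 (28.6%, 11.7 to 54.6%). The 223 peaks inside a lncRNA gene on the other strand had the signal at 53.4% (46.8 to 59.8%), against 66.0% (63.8 to 68.1%) of the others. Reads that map to related copies, and the strand of reads from overlapping genes, cannot be told apart in this list.

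TGTA, the core of the upstream element bound by cleavage factor I, was searched 100 to 41 bp before the 3′ end. It was present at 685 lncRNA peaks (32.6%, 30.6 to 34.6%) against 22.8% on the opposite strand (491 peaks on the gene's strand alone, 286 on the opposite strand alone, exact two-sided McNemar test, p = 1.83e-13). Protein-coding ends had it at 40.1% against 24.1% (exact two-sided McNemar test, p = 4.09e-233).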
